A study of Mus musculus with 12 samples.

Results

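The 9 genes described here encode histone variants of the testis. They are the linker histone genes Hist1h1t, H1fnt and Hils1, the H2A and H2B genes Hist1h2aa, Hist1h2ba, H2afx and H2afz, and the H3.3 genes H3f3a and H3f3b, and they were measured in RNA from whole testes of C57BL/6 mice. They were chosen by symbol from the 24516 genes of the deposited transcript table, and the reads of their transcripts that match a reference transcript or share exons with one were summed, which took in 15 of 71967 transcripts. The 12 libraries came from mice aged 3, 6, 12 and 18 months (3M, 6M, 12M and 18M), with 3 mice at each age. The labels call the testes wild type (WT) and give no treatment. The study's methods call it unclear whether the mice of an age were littermates, so age and litter cannot be told apart. Each library held between 50924104 and 71803379 estimated reads. Because whole testis was sequenced, fewer cells of a type and less RNA per cell cannot be told apart.

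Histones package DNA, and during sperm formation the ordinary histones are exchanged in steps for variants and then mostly for transition proteins and protamines. Hist1h1t encodes H1T, a linker histone of meiotic and early haploid germ cells. H1fnt encodes H1T2 of round and elongating spermatids, and Hils1 encodes a linker histone of elongating spermatids. Hist1h2ba and Hist1h2aa encode TH2B and TH2A, which partner in the nucleosomes of germ cells. H2afx encodes H2A.X, which is phosphorylated at DNA breaks and over the silent sex chromosomes at meiosis. H2afz encodes H2A.Z, found at promoters, and H3f3a and H3f3b both encode H3.3, an H3 that is deposited outside DNA replication. The mRNAs of most replication-dependent histone genes end in a stem-loop without a poly(A) tail, whereas those of H3.3 and H2A.Z are polyadenylated.

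Hist1h2aa and Hist1h2ba are neighbours on chromosome 13 that are transcribed away from each other. In the mm10 coordinates of the files Hist1h2ba lies at chr13:23933725-23934156 on the minus strand and Hist1h2aa at chr13:23934462-23934913 on the plus strand, and 305 bases separate them. In the RefSeq promoter table, which starts Hist1h2aa closer to Hist1h2ba than the files do, the windows of 250 bases upstream of the starts overlap by 220 bases, so that a single stretch lies upstream of both genes. The upstream sequences of Hist1h2aa, Hist1h1t, Hils1 and H3f3b are printed from RefSeq for GRCm38.p6. They were chosen because they cover the shared stretch and the linker histone members with the lowest and the highest level. The H3.3 gene whose reads stood apart in 1 library was also chosen. Capitals mark matches on either strand to CCAAT, to TATANA and to the octamer ATGCAAAT, and matches of TATANA on the 2 strands can overlap.
Hist1h2aa, chr13:23934187-23934436, plus strand: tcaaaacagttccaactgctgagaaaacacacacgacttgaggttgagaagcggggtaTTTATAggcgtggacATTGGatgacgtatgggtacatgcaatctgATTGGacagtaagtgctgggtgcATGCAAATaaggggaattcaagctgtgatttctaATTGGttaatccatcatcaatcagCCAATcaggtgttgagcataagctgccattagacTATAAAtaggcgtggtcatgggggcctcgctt
Hist1h1t, chr13:23695561-23695810, plus strand: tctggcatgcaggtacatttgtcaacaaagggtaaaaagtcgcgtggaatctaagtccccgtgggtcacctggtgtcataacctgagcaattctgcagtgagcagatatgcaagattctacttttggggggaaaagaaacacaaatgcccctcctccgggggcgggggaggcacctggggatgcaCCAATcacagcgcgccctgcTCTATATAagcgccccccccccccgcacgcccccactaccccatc
Hils1, chr11:94967343-94967592, plus strand: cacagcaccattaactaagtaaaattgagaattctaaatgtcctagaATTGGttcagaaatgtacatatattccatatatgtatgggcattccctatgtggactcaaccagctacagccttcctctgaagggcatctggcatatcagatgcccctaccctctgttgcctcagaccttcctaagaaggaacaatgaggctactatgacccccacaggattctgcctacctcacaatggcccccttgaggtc
H3f3b, chr11:116024505-116024754, minus strand: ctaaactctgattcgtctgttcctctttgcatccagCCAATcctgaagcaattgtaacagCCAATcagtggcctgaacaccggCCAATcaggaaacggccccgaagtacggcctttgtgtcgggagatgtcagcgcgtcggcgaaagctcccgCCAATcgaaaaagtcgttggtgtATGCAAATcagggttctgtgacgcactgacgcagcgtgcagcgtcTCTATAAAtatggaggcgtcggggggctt
An upstream sequence was found for 8 of the 9 genes, all but H2afx. CCAAT was present in 7 of them, TATANA in 4, the octamer in 3 and the letters of the cAMP response element, TGACGTCA, in 0. Among 32851 RefSeq promoters cut to the same length, 33.8% held CCAAT, 22.6% TATANA, 1.60% the octamer and 1.55% TGACGTCA. The genes with an octamer were Hist1h2aa and Hist1h2ba, which share the same match, and H3f3b. The windows of Hist1h2aa and Hist1h2ba share 220 bases, so their CCAAT matches are the same sites counted for both genes. A TATANA match is shared likewise. The window upstream of H1fnt held none of the 4 motifs. These matches describe letters and say nothing of whether a factor binds them.

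The 9 genes spanned a wide range of levels. Levels were compared between genes in FPKM, fragments scaled to transcript length and to library size. Hils1 averaged 468.7 ± 37.1 FPKM and H1fnt 448.4 ± 38.3 FPKM over all libraries (SD, n = 12), followed by H3f3a at 255.3 ± 14.1, H3f3b at 168.4 ± 32.6 and H2afz at 150.5 ± 7.11. H2afx stood at 28.3 ± 1.56 FPKM, Hist1h2ba at 4.05 ± 0.45, Hist1h2aa at 3.13 ± 0.62 and Hist1h1t at 2.17 ± 0.325. The ranges of Hils1 and H1fnt overlapped, as did those of H3f3b and H2afz, of Hist1h2ba and Hist1h2aa, and of Hist1h2aa and Hist1h1t, while H1fnt and H3f3a, H3f3a and H3f3b, H2afz and H2afx, and H2afx and Hist1h2ba did not overlap. Some of this order depends on the measure. In counts scaled to library size with TMM factors (CPM) but not to length, H3f3b (median 399.5) lay above H3f3a (306.9). H1fnt (median 654.1) likewise lay above Hils1 (449.7). On internal exons the coverage ratio of H3f3b to H3f3a had a median of 0.977. The place of Hist1h2ba depends on how its reads are divided among transcripts: its reference transcript alone had 0.809 FPKM, below Hist1h1t, while assembled transcripts that share its exon held most of its reads. The methods name the TruSeq RNA v2 kit together with ribosomal RNA removal, and whether poly(A) RNA was also selected is not given in the sources used here. Levels of histone mRNAs without a poly(A) tail depend on that step, so they cannot be read as their abundance in the tissue.

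**Figure D1:**
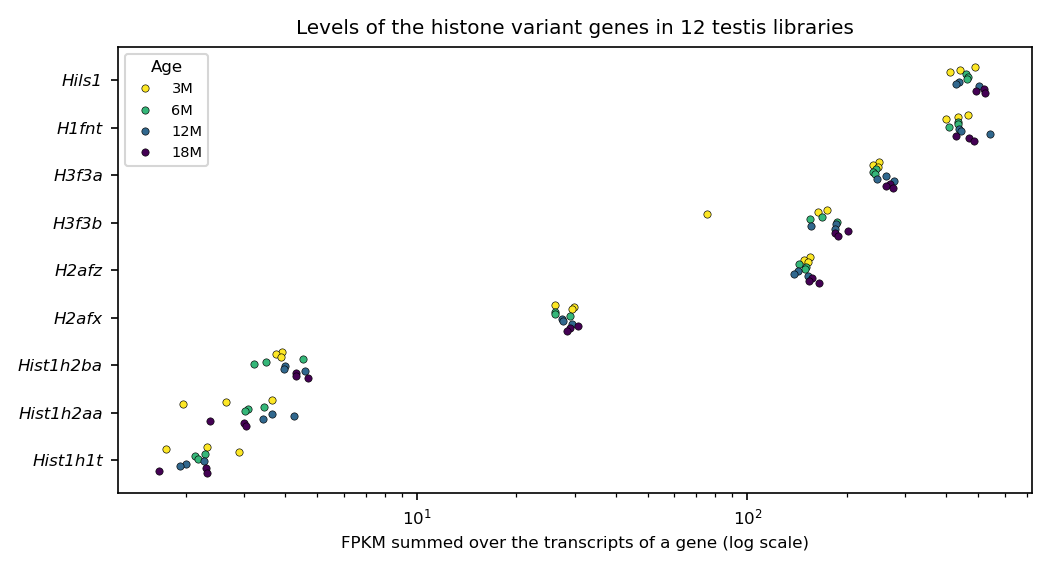
FPKM of each gene on a log scale in the 12 libraries, with 1 point per library coloured by age. Hils1 and H1fnt share the top positions, and the H3f3b point far to the left is the third 3M library at 75.5 FPKM.

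No member passed the test for a change with age. Changes were tested with the quasi-likelihood test of edgeR, with p adjusted by Benjamini and Hochberg over all genes tested, and a gene was called at an adjusted p of 0.05 or less. For the slope on age over all 12 libraries, 0 of the 9 members were called, where 0.41% of 18545 genes were called. The pairwise tests likewise called 0 of 9 between 3M and 18M (0.0662% of all genes), between 3M and 6M (0.0497%), between 6M and 12M (0.0606%) and between 12M and 18M (0.0275%). Without adjustment, 3 members (Hils1, Hist1h2ba and H3f3a) reached p of 0.05 for the slope, where 17.5% of all genes did and 8.26% did so with a slope above 0, and 2 (Hils1 and H3f3a) did so between 3M and 18M, where 13.5% of all genes did. DESeq2, as an alternative, called 1 member for the slope, H3f3a, where it called 2.5% of all genes. Tested as transcripts, 0 member transcripts were called by edgeR, where 0.0103% of 58289 transcripts were.

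The slopes were small and mostly above 0. A slope above 0 was found in 8 of the 9 members, all but Hist1h1t, where 49.4% of all genes had one, and none of the 8 passed the test. The median slope was 0.0098 log2 units per month over the members and -0.00019 over all genes tested. In 4 members (Hils1, H2afz, H3f3a and H3f3b) every 18M library lay above every 3M library, an arrangement found in 9.67% of all genes. The reverse arrangement was found in 0 members and 10.8% of all genes, and in 5 members the ages overlapped. The mean was higher at every step from 3M to 18M in 2 members, Hils1 and H3f3b, where 6.51% of all genes had such means. For H3f3b the first step rests on the third 3M mouse, without which the log2 difference of 6M from 3M was -0.0022. For Hils1 the step from 6M to 12M, with means of 445.4 and 447.7 CPM, rests on the third 12M mouse at 494.4 CPM. The other 12M mice, at 427.5 and 421.0 CPM, lay below every 6M mouse. On the first 3 exons of H3f3b the means were 158.2, 168.4, 174.0 and 183.0 CPM from 3M to 18M.

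**Figure D2:**
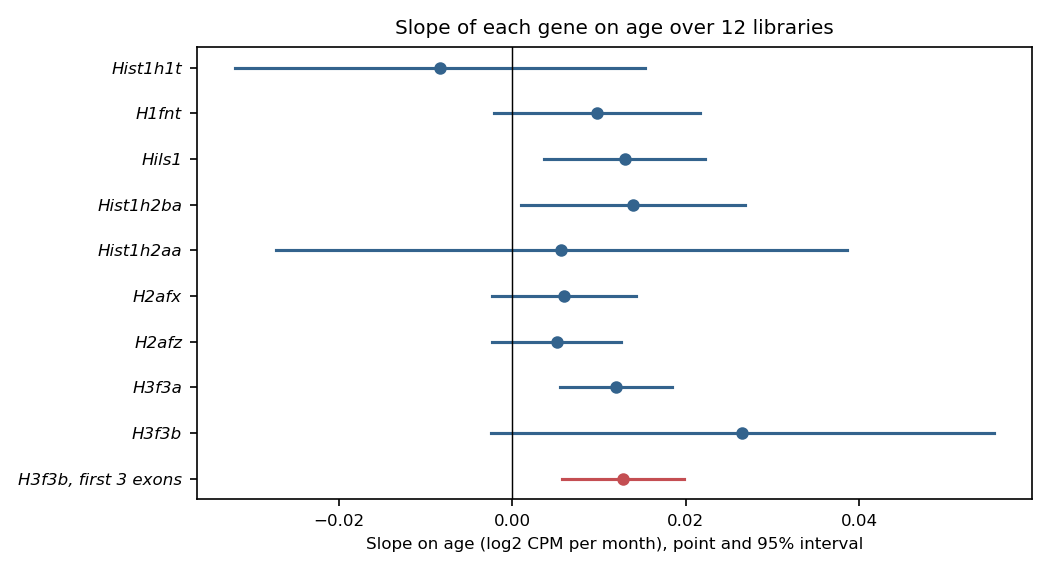
Slope on age in log2 CPM per month (point) with its 95% interval (line) for each gene over 12 libraries. The red row is H3f3b counted on its first 3 exons, with a narrower interval than the whole gene. Its interval and those of Hils1, Hist1h2ba and H3f3a lie above 0 before adjustment.

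Among the linker histones, both spermatid genes were far above Hist1h1t in these libraries. Whether a poly(A) tail sets these mRNAs apart was not tested, so the limit from the library selection applies to their ratio. Of the summed FPKM of these 3 linker histone genes, Hils1 made up 48.0% to 54.7%, H1fnt 45% to 51.9% and Hist1h1t 0.173% to 0.357%. Other linker histone genes, such as Hist1h1c, were not in the sum. Hils1 was above H1fnt in 9 of 12 libraries. The ratio of the Hils1 level to the H1fnt level was 1.03 ± 0.021 at 3M and 1.08 ± 0.039 at 6M, then 0.964 ± 0.037 at 12M and 1.12 ± 0.087 at 18M (SD, n = 3).

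Hils1 is a single-exon gene at chr11:94967593-94968456 on the plus strand, inside Sgca on the opposite strand but outside its exons. The 3M mice had 475.7, 422.2 and 399.6 CPM (counts scaled to library size with TMM factors), the 6M mice 447.1, 452.3 and 436.8, the 12M mice 427.5, 421.0 and 494.4, and the 18M mice 505.3, 482.8 and 516.9. The 18M mice did not overlap the 3M mice, while the third 12M mouse lay among the 18M values. The 18M level was 1.16-fold that at 3M (95% interval 1.04 to 1.29, log2 difference 0.21, SE 0.07), with an edgeR p of 0.0147 and an adjusted p of 0.301. The slope was 0.013 log2 units per month (SE 0.0043, edgeR adjusted p = 0.174).

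H1fnt is a single-exon gene at chr15:98255982-98257307 on the minus strand. It had 694.8, 641.3 and 599.3 CPM at 3M and 651.5, 648.7 and 594.1 at 6M, then 656.8, 667.4 and 820.5 at 12M and 638.4, 705.7 and 733.0 at 18M. The 18M mice overlapped the 3M mice, and the third 12M mouse was the highest of the 12. The 12M mice lay above the 6M mice without overlap, an arrangement not counted over all genes for these ages. The log2 difference of 18M from 3M was 0.10 (SE 0.07, edgeR adjusted p = 0.543), and its 95% interval of the fold ran from 0.957 to 1.2.

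Hist1h1t, a single-exon gene at chr13:23695811-23696545 on the plus strand, had 69 to 132 reads per library. Its levels were 1.93, 1.43 and 2.41 CPM at 3M and 1.91, 1.77 and 1.76 at 6M, then 1.92, 1.68 and 1.62 at 12M and 1.90, 1.39 and 1.96 at 18M. Both the highest and the second lowest value were in 3M mice, and the ages overlapped. Between 3M and 18M its log2 difference was -0.13 (SE 0.23, edgeR adjusted p = 0.823), with a 95% interval of the fold from 0.629 to 1.32, and the direction turned without the third 3M mouse (0.06) or the second 18M mouse (0.0024).

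**Figure D3:**
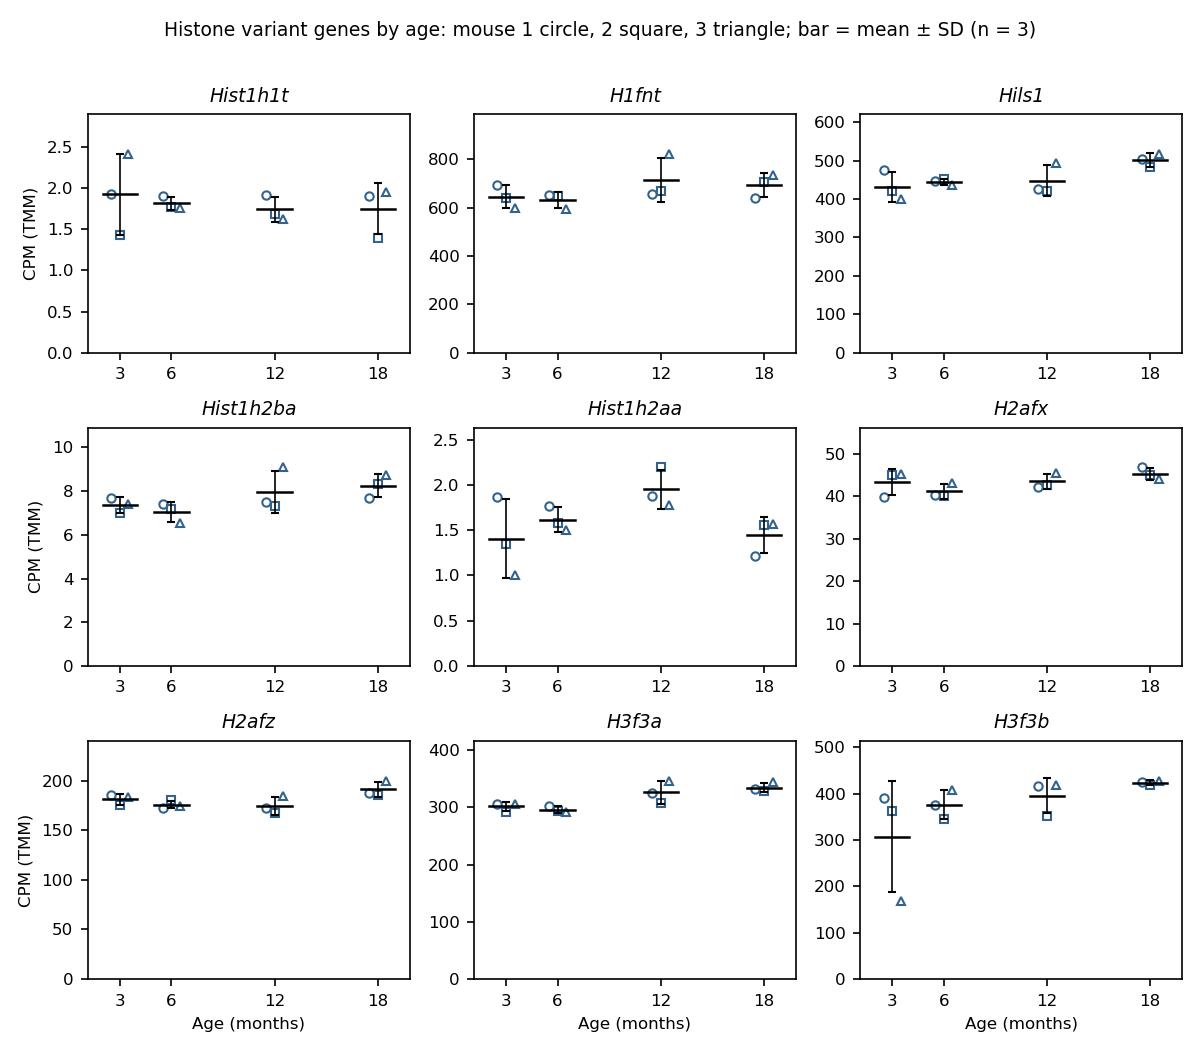
CPM after TMM scaling of each gene against age in months, with circles, squares and triangles for the mice numbered 1, 2 and 3 at each age, and the mean with its SD as bars (n = 3). Hils1 and H3f3a are higher in every 18M mouse than in every 3M mouse, and the lone low triangle of H3f3b is the third 3M mouse at 169.0 CPM.

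Both genes of the TH2A and TH2B pair were low in these libraries, with the same limit from the library selection. Most reads given to Hist1h2ba lay outside its annotated exon. The annotated gene is a single exon of 432 bases, yet the largest of its assembled transcripts, 1995 bases long, ran over chr13:23929449-23934156 and so continued past the annotated 3′ end. Exons beyond the annotated gene held between 74.9% and 84.4% of the Hist1h2ba reads in each library (median 81.3%). The exons on the annotated gene held 55.5 to 113 reads per library.

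**Figure D4:**
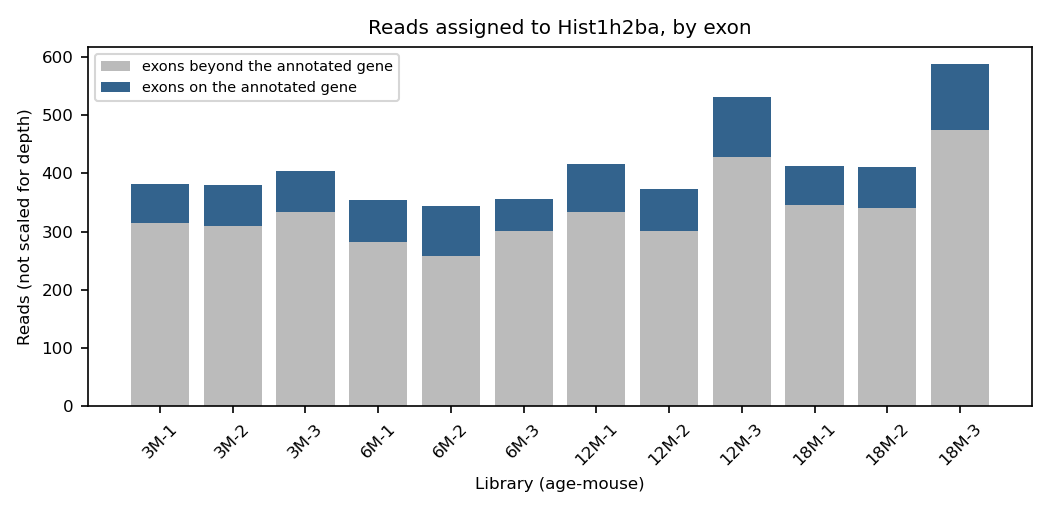
Estimated reads assigned to Hist1h2ba in each library, not scaled for depth, divided between exons on the annotated gene (blue) and assembled exons beyond it (grey). The grey part makes up 74.9% to 84.4% of each bar.

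Hist1h2ba had 7.70, 7.0 and 7.40 CPM at 3M and 7.39, 7.19 and 6.55 at 6M, then 7.49, 7.32 and 9.09 at 12M and 7.69, 8.34 and 8.73 at 18M. The 18M mice reached higher than the 3M mice but overlapped them, and the third 12M mouse was again the highest. The slope was 0.014 log2 units per month (SE 0.0060), with an edgeR p of 0.0373 and an adjusted p of 0.26. Counted on the annotated exon alone it was 0.0099 (SE 0.012, edgeR adjusted p = 0.706), a count added after the data had been seen. From 3M to 18M the log2 difference was 0.16 (edgeR adjusted p = 0.446) on all reads and 0.15 (edgeR adjusted p = 0.72) on the annotated exon. It was 0.65 (edgeR adjusted p = 0.552) on the reference transcript alone, which had 261 reads over all 12 libraries.

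Hist1h2aa had 55 to 112 reads per library. Its levels were 1.87, 1.34 and 1.01 CPM at 3M and 1.76, 1.58 and 1.5 at 6M, then 1.88, 2.19 and 1.78 at 12M and 1.21, 1.55 and 1.57 at 18M. The 12M mice lay above the 18M and the 6M mice, without overlap. At the boundary with 6M the values were 1.78 and 1.76 CPM, and the share of all genes so arranged was not counted. The log2 difference of 18M from 12M was -0.43 (SE 0.17), with an edgeR p of 0.0365 and an adjusted p of 1.0. Between 3M and 18M the log2 difference was 0.04 (SE 0.25, edgeR adjusted p = 0.953), with a 95% interval of the fold from 0.689 to 1.54, and it turned below 0 without the third 3M mouse (-0.15), the second 18M mouse (-0.0078) or the third 18M mouse (-0.022). A predicted microRNA gene, Gm44344, lies over its exon on the other strand, and the libraries do not separate strands.

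H2afx and H2afz varied little. H2afx, at chr9:44334715-44336073 on the plus strand, had 40.0, 45.2 and 45.4 CPM at 3M and 40.4, 40.0 and 43.2 at 6M, then 42.3, 42.8 and 45.6 at 12M and 46.9, 45.1 and 44.1 at 18M. The first 3M mouse was among the lowest of the 12, and the 18M mice overlapped the 3M mice. Against the 6M mice the 18M mice were higher without overlap, an arrangement not counted over all genes for these ages. The 3M to 18M log2 difference was 0.06 (SE 0.07, edgeR adjusted p = 0.705), with a 95% interval of the fold from 0.939 to 1.16. A predicted microRNA gene, Gm44335, lies over its exon on the other strand.

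H2afz, with 5 exons at chr3:137864487-137866922 on the plus strand, had 185.8, 175.2 and 183.1 CPM at 3M and 172.8, 180.0 and 174.3 at 6M, then 171.9, 167.4 and 184.8 at 12M and 187.4, 185.9 and 199.9 at 18M. The 18M mice were above the 3M mice by a narrow margin, with 185.9 against 185.8 CPM at the boundary. The log2 difference was 0.08 (SE 0.05, edgeR adjusted p = 0.515), with a 95% interval of the fold from 0.974 to 1.14. Of its 2 reference transcripts, the more abundant held 93.9% of the reads over all libraries.

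The H3.3 genes gave the smallest p of the members and the sample that stood most apart. H3f3a, with 4 exons at chr1:180802560-180813605 on the minus strand, had 306.4, 292.1 and 306.2 CPM at 3M and 302.2, 294.0 and 291.7 at 6M, then 324.6, 307.5 and 346.6 at 12M and 331.9, 327.8 and 344.0 at 18M. All 18M mice lay above all mice of 3M, as in 9.67% of all genes. They also lay above all mice of 6M, which was not counted over all genes. The 18M level was 1.11-fold that at 3M (95% interval 1.04 to 1.19, log2 difference 0.15, SE 0.04), with an edgeR p of 0.0079 and an adjusted p of 0.291. The slope was 0.012 log2 units per month (SE 0.0030), with an edgeR p of 0.0014 and an adjusted p of 0.104, and DESeq2 gave it an adjusted p of 0.0171. The lincRNA gene Gm17275 overlaps an exon of H3f3a on the other strand, and without strand their reads cannot be told apart. The antisense gene H3f3aos lies outside the reference transcript, but its span holds the first exon of an assembled H3f3a transcript. That transcript had 7.79% of the gene's reads. Processed copies of the H3.3 and H2A.Z genes exist in the genome, so reads shared with a copy are uncertain.

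H3f3b, with 4 exons at chr11:116021961-116024504 on the minus strand, had 390.9, 361.9 and 169.0 CPM at 3M and 375.3, 344.5 and 408.2 at 6M, then 417.3, 352.2 and 417.8 at 12M and 425.2, 418.5 and 427.9 at 18M. The third 3M mouse was far below the other 11 libraries. The 18M mice were above the mice of every other age, with 418.5 against 417.8 CPM at the boundary, which was not counted over all genes. The log2 difference of 18M from 3M was 0.46 (SE 0.27, edgeR adjusted p = 0.476), and the 95% interval of the fold ran from 0.888 to 2.14. Without the third 3M mouse the log2 difference was 0.17 (SE 0.05, edgeR adjusted p = 0.313) and the slope was 0.012 in place of 0.027 log2 units per month.

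The low value of that mouse came from a single exon. The 3′ exon of H3f3b, 1575 bases long, held 53.2% to 59.8% of the gene's reads in the other 11 libraries but 5.60% in the third 3M library. In CPM the 3′ exon stood at 233.6, 204.0 and 9.47 in the 3M mice, against 187.9 to 246.7 in the other ages. The first 3 exons of the same gene stood at 157.2, 157.9 and 159.6 CPM in the 3M mice, so that the third mouse was level with the other two there. The 3′ exon of H3f3a held 43.2% to 46.3% of that gene's reads and that of H2afz 31.6% to 35.4%, the third 3M library included.

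**Figure D5:**
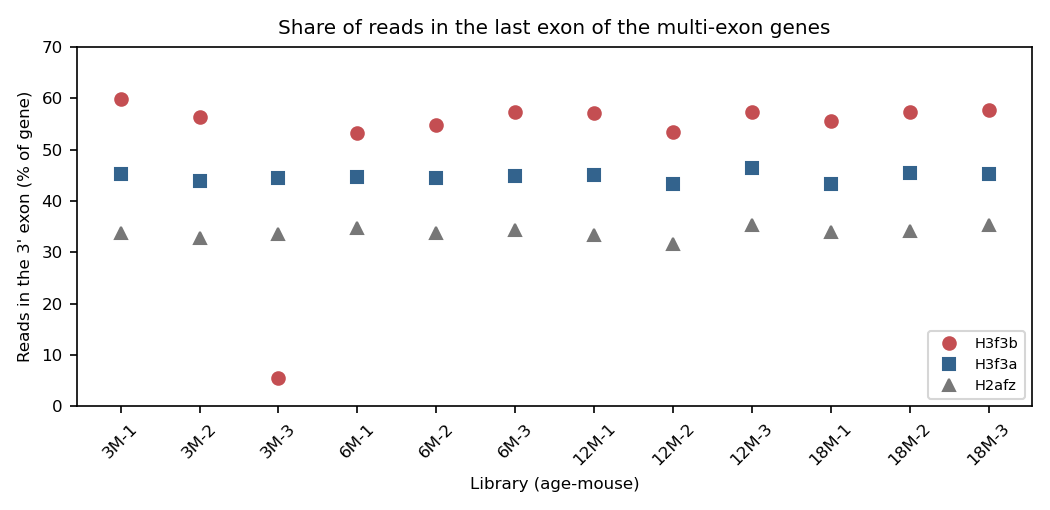
Share of a gene's reads (percent) that lie in its 3′ exon, for H3f3b, H3f3a and H2afz, in each of the 12 libraries. H3f3b sits between 53.2% and 59.8% in 11 libraries and at 5.60% in the third 3M library, while the other genes show no such drop.

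Such drops of 3′ exon coverage were uncommon but not particular to H3f3b. Among 2797 reference transcripts with several exons and a coverage of at least 100, 32 (1.14%) had a 3′ exon at least 8-fold below its own median, relative to the other exons, in 1 or more libraries. The drop of H3f3b was 22.1-fold. There were 3 to 9 such transcripts per library, and 7 in the third 3M library. The origin of the drop was not tested.

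Counted on the first 3 exons, a choice made after the drop had been seen, H3f3b had 157.2, 157.9 and 159.6 CPM at 3M and 175.5, 155.8 and 174.1 at 6M, then 179.2, 164.2 and 178.4 at 12M and 189.0, 178.6 and 181.2 at 18M. The 18M mice were again above the 3M mice without overlap. The 3M to 18M log2 difference was 0.21 (SE 0.04), with an edgeR p of 0.0015 and an adjusted p of 0.252. The slope was 0.013 log2 units per month (SE 0.0033, edgeR adjusted p = 0.111), close to that of H3f3a in size.

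The division of H3.3 reads between its 2 genes was compared within libraries. H3f3b gave 56.1%, 55.3% and 35.6% of the H3.3 reads in the 3M mice and 56.2%, 56.1% and 55.4% in the 18M mice, a difference of 6.90 percentage points (two-sided exact permutation p = 0.2, where 3 against 3 cannot go below 0.1). On the first 3 exons of both genes the share was 48.6% ± 0.37 at 3M and 49.7% ± 0.58 at 18M (SD, n = 3), a difference of 1.07 points (exact permutation p = 0.2). Leaving out the third 3M mouse took the first difference to 0.193 points. The internal exons, 292 bases in H3f3b and 305 in H3f3a, had a coverage ratio of H3f3b to H3f3a between 0.945 and 1.11 (median 0.977), above 1 in 5 of 12 libraries.

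The assembly also divided the H3f3b reads among transcripts in different ways. Its reference transcript held 99.4% to 100% of the reads in 11 libraries and 81.4% in the first 18M library. There an assembled transcript of 1494 bases had 4244 reads, and it had 0 in every other library. The share was 99.8% ± 0.21 at 3M and 93.8% ± 10.7 at 18M (SD, n = 3; two-sided exact permutation p = 1). The gene values sum these transcripts.

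The replication-dependent histone genes were mostly low in these libraries, with the same limit from the library selection. Of 66 such genes in the table, 25 had a mean of at least 1 FPKM, and 48 lay below Hist1h1t (median 0.462 FPKM). Only Hist2h2aa1 at 306.7 FPKM and Hist1h2bp at 46.7 FPKM lay above H2afx. Near-identical copies exist in this family, so the reads of a single copy are uncertain. In the slope test 0 of the 39 genes tested rose or fell (median slope 0.0028 log2 units per month).

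Lists of genes around the variants held no called slopes either. Of 10 further variant genes tested (13 listed), 22 genes for H3.3 and H2A.Z deposition, 8 for histone removal, 5 transition protein and protamine genes, 10 for H2A.X signalling and 11 for histone mRNA processing, 0 rose and 0 fell. The median slopes were 0.011, -0.0013, -0.00072, 0.013, -0.0045 and -0.0022 log2 units per month in this order. The genes with the highest CPM were H2afb1 and H2afy, Nasp and Ep400, Psme4 and Chd5, Prm2 and Tnp2, Mdc1 and Atr, and Sympk and Slbp. The H3 chaperone gene Nasp had 1208 CPM at 3M and 1173 at 18M, and the protamine gene Prm2 had 5583 and 6111 CPM. In the steps, 1 gene of these lists was called, H2afj, a variant H2A gene, which fell by 1.37 on the log2 scale from 3M to 6M (SE 0.13, edgeR adjusted p = 0.0209). H2afj had 3.62, 3.66 and 3.62 CPM at 3M and 1.49, 1.48 and 1.23 at 6M, but ranged from 0.842 to 7.94 among the 12M mice and from 0.578 to 5.53 among the 18M mice.

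The spermatid markers leaned upward in the slope, but not at every step, without a called gene. From 3M to 6M, 5 of 6 round and 2 of 7 elongating spermatid markers had a difference above 0. From 6M to 12M all 6 and all 7 did, and from 12M to 18M 2 of 6 and 2 of 7. The summed CPM of 6 round spermatid markers was 1157 to 1354 at 3M and 1415 to 1488 at 18M, and that of 7 elongating spermatid markers was 17674 to 19616 and 18570 to 21894. All 6 and all 7 had slopes above 0, with medians of 0.012 and 0.013 log2 units per month, and 0 of them passed the test. The elongating spermatid markers share genes with the transition protein and protamine genes, Prm2 and Tnp2 among them, so their slopes are not separate results. The summed CPM of 8 spermatocyte markers was 1964 to 2034 at 3M and 2036 to 2071 at 18M, and that of 8 spermatogonia markers 132 to 143 and 137 to 142. Slopes above 0 were found in 5 of the 8 spermatocyte markers (median 0.0023) and 4 of the 8 spermatogonia markers (median -0.00024), and 0 were called. Between 3M and 18M, 5 of 6 round and 7 of 7 elongating spermatid markers had a difference above 0 (median log2 difference 0.18 and 0.13). So did 4 of the 8 spermatocyte markers (median 0.022) and 3 of the 8 spermatogonia markers (median -0.024), and 0 were called. The most abundant spermatocyte marker, Pgk2, had 933.3 CPM at 3M and 1011 at 18M. The next, Piwil1, went the other way, with 510.7 and 491.0 CPM. The third 12M mouse, which was highest for H1fnt, Hist1h2ba and H3f3a, was also highest for the round spermatid (1512), elongating spermatid (24301) and replication-dependent histone sums (408.5 CPM). The part of these shifts in the histone variant values was not tested.

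Among somatic cell markers, some of those of Leydig cells fell. Of 7 Leydig cell markers, 3 fell in the slope test and 0 rose, with a summed CPM of 918 to 1094 at 3M and 586 to 802 at 18M. Cyp17a1, an enzyme of androgen synthesis, fell by 0.097 log2 units per month (edgeR adjusted p = 2.8e-05), Cyp11a1, the first enzyme of steroid synthesis, fell by 0.11 (edgeR adjusted p = 0.0019), and Lhcgr, the receptor for luteinizing hormone, fell by 0.095 (edgeR adjusted p = 0.0335). Of 8 Sertoli, 4 peritubular, 4 endothelial, 4 macrophage, 3 lymphocyte and 2 epididymis markers tested, 0 were called for the slope. Slopes above 0 were found in 4 of 8 Sertoli, 0 of 4 peritubular, 1 of 4 endothelial and 0 of 4 macrophage markers. The medians were -7.8e-05, -0.012, -0.017 and -0.016 log2 units per month in this order. All 3 lymphocyte markers and 1 of 2 epididymis markers had slopes above 0. The lymphocyte and epididymis sums stayed at or below 4.51 and 2.70 CPM.

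The genes most like H3f3a, the member with the smallest slope p, were found by Pearson's r of log2 CPM over 12 libraries among 9872 genes with a mean of at least 10 CPM. They were 1700049L16Rik (r = 0.960), Nup35, a nuclear pore gene (r = 0.950), and 1700018B08Rik (r = 0.946). Their means were 90.0, 82.0 and 176.7 CPM at 3M and 107.9, 91.1 and 193.1 CPM at 18M. These values share libraries and depth with H3f3a, and r is given as a description.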

How the data were processed

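Ribosomal RNA was removed per the methods, whether poly(A) RNA was also selected is not given in the sources used here, and paired ends were sequenced with a kit that does not mark strand. The authors aligned the reads to mm10 with HISAT2 and assembled and quantified transcripts with StringTie 1.3.3b. The deposited counts are estimated counts per transcript (coverage times length over the read length of 101, rounded up by the authors). The deposited FPKM values were set by the authors per transcript length and library fragments, without normalization between libraries. Exon coverage was read from the deposited assembly of each library.

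Counts of classes =, c, j and o were summed per gene, filtered with filterByExpr (minimum count 10), TMM-scaled and tested with edgeR 4.0.16 in R 4.3.3, with Benjamini-Hochberg adjustment at 0.05. DESeq2 1.42.0 was an alternative, with other scalings, filters, classes and left-out libraries. Shares were compared by two-sided exact permutation tests. Replicates correlated at r of 0.994 to 0.996 across genes, and no pair was identical. In data simulated for the slope, 48.5% of 1.5-fold and 79.0% of 2-fold changes were recovered, and 28.0% and 73.5% for 3M against 18M. False calls numbered 3 and 7 for the slope and 4 and 17 for 3M against 18M. Smaller changes, such as those of Hils1 (1.16-fold) and H3f3a (1.11-fold) between 3M and 18M, were not simulated. Genes named are the members, list genes called, the 2 list genes with the highest CPM and the 3 genes most like the member with the smallest slope p. The members and lists were chosen with earlier results of these data known. Overlapping genes were read from GENCODE M21 and promoters from RefSeq.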

Additional observations from a re-analysis of the deposited data

How the results depend on the processing

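No member was called by edgeR under any alternative run. DESeq2 called 1 member, H3f3a, for the slope, and 1 member transcript, the reference transcript of H3f3a (slope 0.0088, adjusted p = 0.0397). Counts over all genes moved more. The slope called 76 genes, 45 without a filter, 566 with DESeq2 and 11 with class = only, and 18 (without the third 18M mouse) to 193 (without the first 18M mouse) when 1 library was left out. Between 3M and 18M, 12 became 266 with DESeq2, 19 with class = only, 22 in a fit of all 12 libraries and 14 to 25 without 1 library. Between 3M and 6M, 9 became 69 with DESeq2, 0 with class = only, 3 in the fit of all libraries and 11 to 30 without 1 library. Between 6M and 12M, 11 became 108 with DESeq2, 7 with all classes, 3 in the fit of all libraries and 5 to 21 without 1 library. Between 12M and 18M, 5 became 34 with DESeq2, 0 in the fit of all libraries and 5 to 19 without 1 library. For transcripts, 6 became 1075 with DESeq2, 3 without a filter and 3 to 8 without 1 library. The causes were not tested.

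With the replicate block, the slope called 42 genes, 3M against 18M 7, 6M against 12M 0 and the transcript slope 3, and still 0 members. The deviations of same-numbered mice from their age means correlated at r of -0.062 to 0.17 over 18 pairs, 1 of them over 0.1. Differently numbered mice were not compared, so whether the numbers mark a shared step cannot be told.

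Leaving out 1 library, the slope of Hist1h1t (-0.0084) ranged from -0.015 to 0.00050 and that of Hist1h2aa (0.0056) from -0.0057 to 0.017, and both turned without the third 3M mouse. The 3M to 18M difference of Hist1h1t ranged from -0.31 to 0.062 and that of Hist1h2aa from -0.15 to 0.30. Both turned without the third 3M mouse and without the second 18M mouse (0.0024 and -0.0078), and Hist1h2aa also without the third 18M mouse (-0.022). The 18M minus 3M share of the H3f3b reference transcript was -6.04 points, and -9.14 to 0.163 without 1 library, turning without the first 18M mouse. The H3f3b share of H3.3 reads differed by 0.193 to 10.4 points without 1 library, 6.51 in FPKM and 5.53 on reference transcripts, against 6.90. Hist1h1t and Hist1h2aa had 55 to 132 reads per library, and the part of depth in their spread was not tested.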
